A study of Rattus norvegicus with 12 samples.

Results

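The genes of Wnt signalling were followed in the retina of rats 12 h after experimental traumatic optic neuropathy (TON), at the level of their mRNA and of the m6A peaks on their transcripts. The set holds the Wnt ligands, the Frizzled receptors, the co-receptors Lrp5 and Lrp6, the secreted inhibitors of the Sfrp and Dkk families with Frzb, the R-spondins with their receptors Lgr4, Lgr5 and Lgr6, the receptor ubiquitin ligases Znrf3 and Rnf43, and the intracellular Dishevelled, Axin, Apc and beta-catenin genes. Members were taken by a rule on gene names that uses no measured value, although the rule was set with earlier results of these data known. The rule took 53 of the 22714 rows of protein-coding genes in the expression table, with 51 different names, since Wnt3 and Fzd8 have 2 rows each. No row of the expression table was found under the names Fzd5, Fzd10 and Dvl2, so the levels of these genes were not analysed here, while peaks of Fzd5 are included below.

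TON rats had the optic nerve clamped for 10 s, 2 mm from the eye, by forceps that hold with 40 g. In sham rats the nerve was exposed in the same way and left unclamped. All were male Sprague-Dawley rats 7 to 8 weeks old, and the retinas of 4 rats made up 1 sample. There were 3 TON samples (TON 4, 5 and 6) and 3 sham samples (sham 1, 2 and 3), each sequenced as unselected input RNA and as RNA pulled down with an antibody against N6-methyladenosine (m6A), 12 libraries in all. Levels come from the input libraries and are given as FPKM, fragment counts scaled for transcript length and library size. Whole retinas were measured, so fewer cells of a type and less RNA per cell cannot be told apart, and p-values reflect the spread between pools of 4 rats.

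Wnt proteins are secreted ligands that bind Frizzled receptors together with Lrp5 or Lrp6. Binding recruits Dishevelled and Axin to the membrane, and beta-catenin, which a complex of Axin, Apc and kinases otherwise marks for breakdown, accumulates and turns on target genes with TCF/LEF factors. R-spondins bind Lgr receptors and remove the ligases Znrf3 and Rnf43, which take Frizzleds off the cell surface. In the retina, Fzd4 and Lrp5 with the ligand norrin are known for their part in the growth and barrier function of retinal vessels, and Wnt signalling in Muller glia has been studied in injury and regeneration.

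The input libraries held an estimated 3163301 to 4759817 fragments in protein-coding genes. Retinal markers were present in all of them, with the 4 markers of Muller glia summing to 1355, 1565 and 1523 FPKM in TON, against 1292, 1437 and 1483 FPKM in sham. Markers of other tissues of the eye differed between libraries. The 9 markers of the ocular surface epithelium summed to 6.93, 21.1 and 4.78 FPKM in TON 4, 5 and 6 and to 209.7, 29.7 and 15.5 FPKM in sham 1, 2 and 3, which sets sham 1 apart, and 3 muscle markers summed to 45.3 FPKM in TON 5, against 2.68 to 13.4 FPKM in the other 5 libraries. Gfap, a gene of astrocytes and reactive Muller glia, was the only marker tested that passed the threshold, with 39.1, 36.5 and 31.0 FPKM in TON, against 10.1, 7.28 and 9.58 FPKM in sham (limma, adjusted p = 0.0102). Of 15900 genes that averaged 0.1 FPKM or more in TON or in sham, 6 were higher and 1 was lower in TON at an adjusted p under 0.05 (limma on log2(FPKM + 1), Benjamini-Hochberg adjustment).

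Every role had at least 1 member averaging 1 FPKM or more, and levels differed widely between members. Of the 53 rows, 27 averaged 1 FPKM or more over the 6 libraries and 11 averaged 10 FPKM or more, while 8 were listed at 0 in all libraries. Ctnnb1, the gene of beta-catenin, had the highest level of the set, with 141 ± 2.59 FPKM in TON and 127 ± 7.07 FPKM in sham (SD, n = 3 each). Apc, the scaffold of the complex that breaks beta-catenin down, followed with 69.7 ± 4.25 FPKM in TON and 72.3 ± 7.84 FPKM in sham (SD, n = 3 each). Lgr4, a receptor of the R-spondins, had 39.1 ± 2.80 FPKM in TON and 40.7 ± 2.13 FPKM in sham (SD, n = 3 each), and over all libraries the co-receptor gene Lrp6 averaged 33.5 FPKM and the Wnt-binding inhibitor gene Frzb 30.04 FPKM. Over all 6 libraries the values of Ctnnb1, Apc and Lgr4 did not overlap, while those of Lgr4 overlapped with Lrp6 and those of Lrp6 with Frzb.

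**Figure D1:**
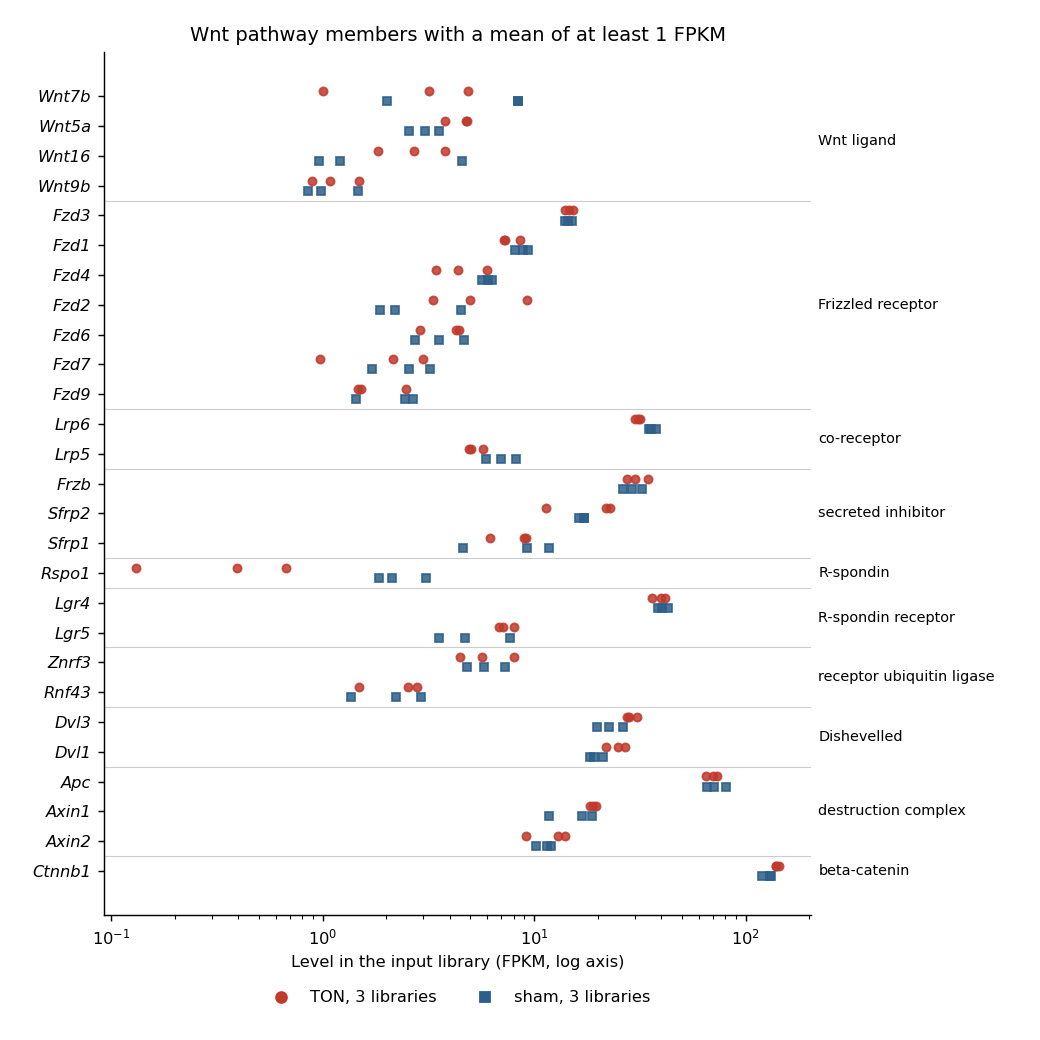
Level of each of the 27 members that average 1 FPKM or more in the 3 TON libraries (red circles, upper row of each gene) and the 3 sham libraries (blue squares, lower row), in FPKM on a log axis, grouped by role. Ctnnb1 lies at the far right with 119 to 144 FPKM, the 4 ligands lie under 10 FPKM, and Rspo1 is the member whose circles and squares lie farthest apart.

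None of the 44 members tested passed the threshold in either direction, against 0.0377% of all genes tested that were higher in TON and 0.00629% that were lower. The lowest adjusted p of the set was 0.259, for Rspo1, and 3 of the 44 members (6.82%) had an unadjusted p under 0.05, beside 10.4% of all genes tested. The median log2 fold change, TON over sham, was -0.0022 over the 44 members and 0.058 over all genes tested. It was above 0 for 21 members and below 0 for 23, and for 28 of them it was smaller than 0.3 in size. All libraries of one group lay apart from all of the other in 7 members. Ctnnb1, Dvl1, Dvl3 and Wnt5a were higher in every TON library than in every sham library, which is 4 of 44 (9.09%) beside 10.8% of all genes tested. Rspo1, Lrp6 and Lrp5 were lower in every TON library, which is 3 of 44 (6.82%) beside 5.33% of all genes tested. Nothing particular to the set is read from these shares. Median centring gave 2 members above (Dvl1 and Wnt5a) and 6 below. Rspo3 and Wnt4 are among the 6 only because centring shifts the zeros of each library by its own amount. Uncentred, they are tied at 0 in libraries of both groups. Quantile normalization gave 2 above (Ctnnb1 and Wnt5a) and 4 below, and Wnt5a, Rspo1, Lrp6 and Lrp5 stayed apart under both settings. Without TON 4, 11 members were above, among them the low genes Lgr6, Sfrp4 and Wnt8a. Leaving out sham 1, TON 4 or TON 6 put 5 members below, leaving out sham 2 put 6 there, and leaving out sham 3 put 7. With fewer libraries such a gap is easier to meet. No share over all genes stands beside the counts of these settings, so nothing about the set is read from them.

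**Figure D2:**
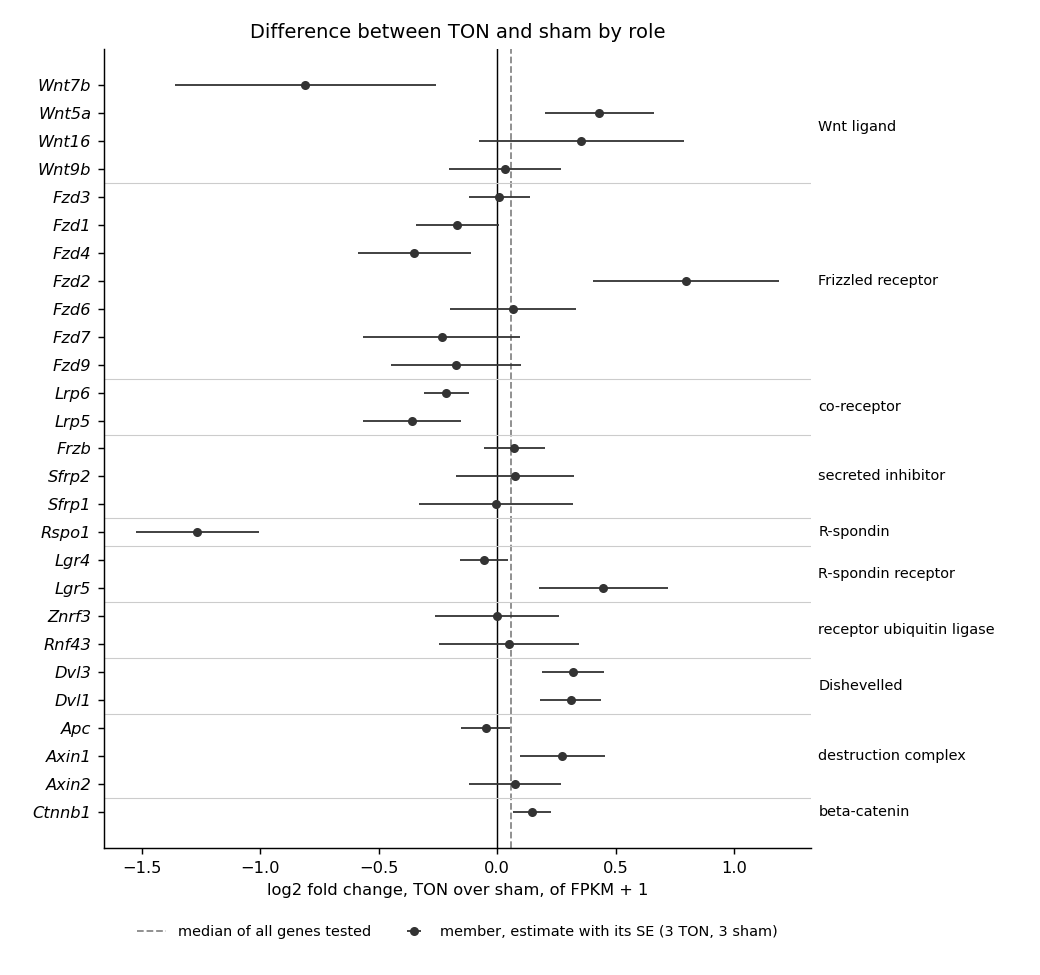
Difference between TON and sham for the same 27 members, as the log2 fold change of FPKM + 1 (horizontal axis, TON over sham) with its standard error from limma on 3 TON and 3 sham libraries. Points right of 0 are higher in TON, the dashed line is the median of all genes tested (0.058), and Rspo1 at -1.27 lies farthest from it.

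Ligand mRNAs were scarce. The 19 ligand rows summed to 14.8 ± 1.67 FPKM in TON and 16.5 ± 6.35 FPKM in sham (SD, n = 3 each), and 4 of them averaged 1 FPKM or more. Wnt5a, the best known ligand of the branches that act without beta-catenin, had 4.77, 4.83 and 3.79 FPKM in TON, against 3.57, 2.55 and 3.06 FPKM in sham. The lowest TON value lay just above the highest sham value. The log2 fold change was 0.43 with a standard error of 0.23 (limma, adjusted p = 0.567). Wnt7b, a ligand of the beta-catenin branch, had 4.86, 0.999 and 3.18 FPKM in TON, against 8.36, 2.01 and 8.36 FPKM in sham. The spread within each group was as large as the difference between them, and the log2 fold change was -0.81 with a standard error of 0.55 (limma, adjusted p = 0.656). Wnt16 spread from 1.83 to 3.80 FPKM in TON and from 0.957 to 4.55 FPKM in sham, and Wnt9b from 0.889 to 1.48 FPKM in TON and from 0.857 to 1.48 FPKM in sham.

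The remaining ligands were lower still. Wnt2, Wnt2b, Wnt5b, Wnt6, Wnt7a, Wnt8a, Wnt9a, Wnt10a, Wnt11, Wnt4 and 1 row of Wnt3 had means between 0.0299 and 1.05 FPKM in any group where they were above 0. Wnt2 was at 0.963 and 0.546 FPKM in TON 4 and 6 and listed at 0 in TON 5 and in all 3 sham libraries. Wnt4 went the other way, listed at 0 in all TON libraries and in sham 3, with 0.668 FPKM in sham 1 and 0.402 FPKM in sham 2. In both genes the groups overlap at 0. Wnt1, Wnt8b, Wnt10b and the other row of Wnt3 were listed at 0 in every library, and 25 genes of the table that reached 50 FPKM in one library were listed at 0 in another, so a 0 in these files is not by itself absence of the mRNA.

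The Frizzled receptors were measured at intermediate levels. The 9 rows summed to 40.7 ± 5.17 FPKM in TON and 40.8 ± 2.46 FPKM in sham (SD, n = 3 each). Fzd3, a receptor known from axon guidance and planar polarity, was the most abundant, with 14.6, 14.0 and 15.4 FPKM in TON, against 14.1, 14.4 and 15.2 FPKM in sham. Fzd1 had 7.70 ± 0.779 FPKM in TON and 8.77 ± 0.614 FPKM in sham (SD, n = 3 each), and Fzd6, Fzd7 and Fzd9 had group means of 1.82 to 3.86 FPKM.

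Fzd4, the receptor of norrin and of Wnt ligands in retinal vessels, had 6.01, 3.42 and 4.37 FPKM in TON, against 5.69, 6.08 and 6.30 FPKM in sham. TON 5 and 6 were under all sham libraries and TON 4 was among them. The log2 fold change was -0.35 with a standard error of 0.24 (limma, adjusted p = 0.656). Fzd2 had 4.98, 3.32 and 9.22 FPKM in TON, against 4.49, 2.20 and 1.86 FPKM in sham. TON 5 was lower than sham 1, and the wide spread left a log2 fold change of 0.80 with a standard error of 0.39 (limma, adjusted p = 0.537). One row of Fzd8 had 0, 0.210 and 0.269 FPKM in TON and 0.354, 0 and 0.366 FPKM in sham, and the other was listed at 0 throughout.

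Both co-receptor genes were lower in TON in every library. Lrp6 (ENSRNOG00000006338, chr4:232477066-232579512, minus strand), which is required for most signalling through beta-catenin, had 30.1, 31.8 and 31.0 FPKM in TON, against 35.6, 37.9 and 34.9 FPKM in sham. The 2 groups stood apart by about as much as the sham libraries spread. The log2 fold change was -0.21 with a standard error of 0.094 (limma, adjusted p = 0.495). Lrp5, the co-receptor that acts with Fzd4 in retinal vessels, had 5.04, 4.91 and 5.74 FPKM in TON, against 8.21, 5.91 and 6.97 FPKM in sham. TON 6 and sham 2 nearly met, and the log2 fold change was -0.36 with a standard error of 0.21 (limma, adjusted p = 0.598). Summed over both genes the level was 36.2 ± 0.954 FPKM in TON and 43.1 ± 1.12 FPKM in sham (SD, n = 3 each), and this sum is a description, since its parts are the values above. The 3 endothelial markers also had estimates below 0, from -0.21 for Pecam1 to -0.25 for Cldn5, all with overlapping groups, and summed to 24.6, 23.4 and 30.5 FPKM in TON, against 28.1, 25.6 and 41.2 FPKM in sham. Their part in the values of Fzd4 and Lrp5 was not tested.

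**Figure D3:**
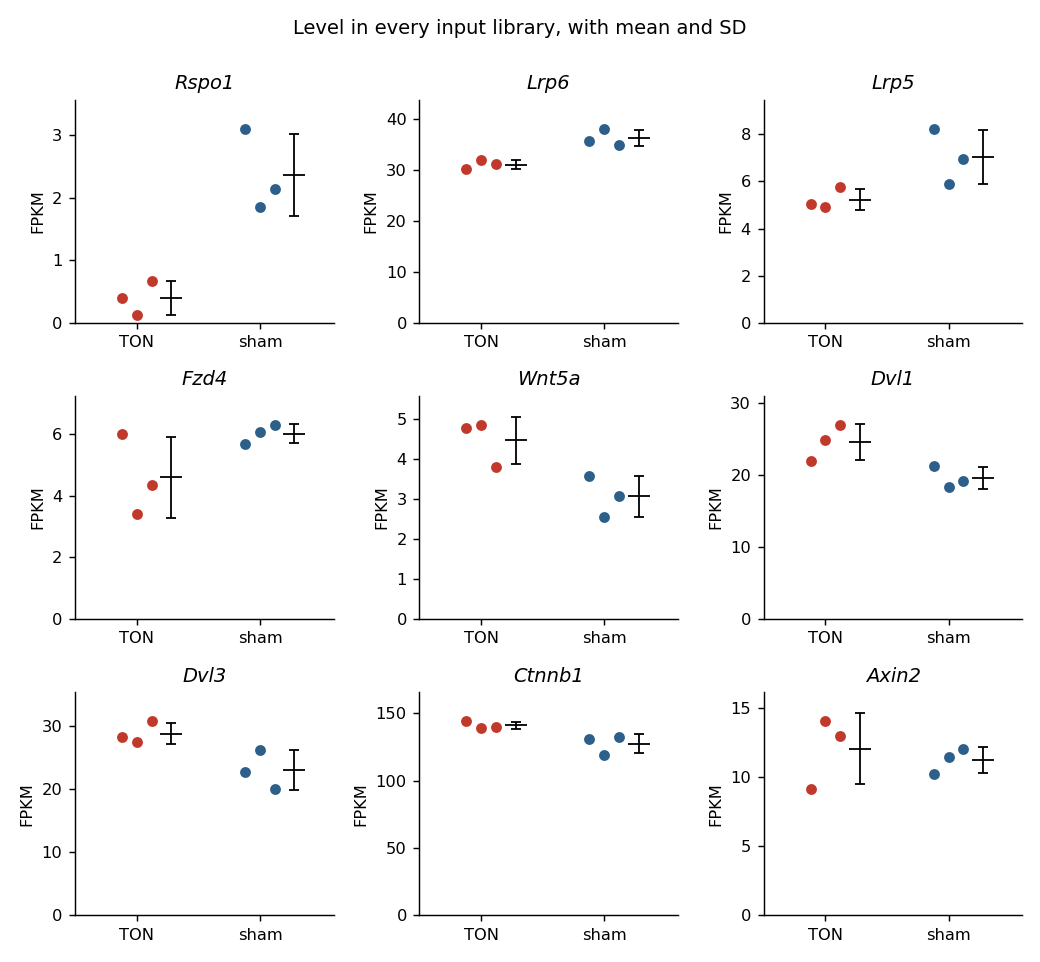
Level in FPKM of 9 members in each TON library (red) and each sham library (blue), with the mean and SD of the 3 libraries as black bars to the right of the points; vertical axes start at 0. The red and blue points do not overlap for Rspo1, Lrp6, Lrp5, Wnt5a, Dvl1, Dvl3 and Ctnnb1, and overlap for Fzd4 and Axin2.

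Rspo1 showed the largest difference of the set. The gene (ENSRNOG00000009656, chr5:146755088-146776423 on the authors' genome, plus strand) encodes an R-spondin, a secreted protein that strengthens Wnt responses by binding Lgr receptors and the ligases Znrf3 and Rnf43. Its level was 0.393, 0.131 and 0.671 FPKM in TON 4, 5 and 6, against 3.09, 1.86 and 2.13 FPKM in sham 1, 2 and 3. Every TON library was under every sham library, and the ratio of group means was 0.169. These levels rest on an estimated 2, 1 and 4 fragments in TON and 21, 14 and 14 fragments in sham. The log2 fold change of FPKM + 1 was -1.27 with a standard error of 0.26, and it did not pass the threshold (limma, adjusted p = 0.259).

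Markers of the ocular surface epithelium also had lower estimates in TON, all 9 of them, with a median log2 fold change of -1.11, none of the 9 passed the threshold, and none was listed at 0 in all libraries. Most of these markers, like Rspo1, are in the study's own list of lowered genes from the same libraries, so their shared direction is not independent evidence. The 5 lens markers also had estimates below 0, with a median log2 fold change of -0.83, and none passed the threshold. They summed to 1741, 1108 and 1141 FPKM in TON, against 3235, 1904 and 1199 FPKM in sham. The keratin gene Krt12 had 2.06, 9.64 and 1.32 FPKM in TON, against 74.9, 6.77 and 7.97 FPKM in sham. Without sham 1, the library with the most of these markers, the log2 fold change of Rspo1 was -1.11 (limma, adjusted p = 0.353), and without sham 1 and TON 5 together it was -0.97 (limma, adjusted p = 0.711). The part of these epithelial and lens cells in the difference was not tested.

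The other R-spondins were near 0. Rspo2 had 0.284, 0.0632 and 0 FPKM in TON and 0, 0.192 and 0.294 FPKM in sham. Rspo3 was listed at 0 in 5 libraries, with 0.872 FPKM in sham 1, and Rspo4 was listed at 0 throughout. Their receptors were well expressed, with Lgr4 at 40.0, 36.0 and 41.4 FPKM in TON, against 40.3, 43.0 and 38.8 FPKM in sham. Lgr5, a marker of stem cells in several epithelia, had 7.14, 6.79 and 8.02 FPKM in TON, against 4.69, 7.66 and 3.57 FPKM in sham, and sham 2 lay inside the TON range (log2 fold change 0.45 with a standard error of 0.27, limma, adjusted p = 0.61). Lgr6 was at or under 0.142 FPKM in every library. The ligase genes Znrf3 and Rnf43 gave log2 fold changes of -0.0013 and 0.051, with standard errors of 0.26 and 0.29.

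The 8 secreted inhibitors, which bind Wnt proteins or their co-receptors, summed to 58.1 ± 3.77 FPKM in TON and 55.1 ± 3.78 FPKM in sham (SD, n = 3 each). Frzb had 34.7, 30.1 and 27.6 FPKM in TON, against 26.3, 32.3 and 29.2 FPKM in sham. Sfrp2 had 11.4, 22.8 and 22.0 FPKM in TON, against 17.3, 16.4 and 17.3 FPKM in sham, so that TON 4 was the lowest library and TON 5 the highest. Sfrp1 had 8.12 ± 1.68 FPKM in TON and 8.55 ± 3.64 FPKM in sham (SD, n = 3 each). No inhibitor had a log2 fold change over 0.28 in size. Sfrp4, Sfrp5 and Dkk2 were at or under 0.443 FPKM in each library, and Dkk1 and Dkk4, inhibitors that bind Lrp5 and Lrp6, were listed at 0 throughout.

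Inside the cell, both measured Dishevelled genes were higher in every TON library. Dishevelled proteins carry the signal from Frizzled to the destruction complex. Dvl3 had 28.2, 27.4 and 30.7 FPKM in TON, against 22.7, 26.2 and 20.0 FPKM in sham (log2 fold change 0.32 with a standard error of 0.13, limma, adjusted p = 0.467). Dvl1 had 21.9, 24.9 and 26.9 FPKM in TON, against 21.2, 18.4 and 19.2 FPKM in sham (log2 fold change 0.31 with a standard error of 0.13, limma, adjusted p = 0.471). In Dvl3 sham 2 came closest to the TON libraries, and in Dvl1 sham 1 did. The gap of Dvl3 closed when libraries were median-centred and the gaps of both closed after quantile normalization, while the estimates stayed above 0.

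Beta-catenin itself differed little. Ctnnb1 (ENSRNOG00000019139, chr8:128798559-128825828, plus strand) had 144, 139 and 139.9 FPKM in TON, against 131, 119 and 132 FPKM in sham, a ratio of group means of 1.11. All TON libraries were higher, although median centring closed the gap (log2 fold change 0.15 with a standard error of 0.081, limma, adjusted p = 0.58). Axin2 (ENSRNOG00000003612, chr10:96933420-96959744, plus strand), which is at once a scaffold of the destruction complex and a standard target gene of beta-catenin, had 9.14, 14.0 and 13.01 FPKM in TON, against 10.2, 11.5 and 12.0 FPKM in sham. TON 4 was the lowest library and TON 5 the highest, and the log2 fold change of 0.075 with a standard error of 0.19 (limma, adjusted p = 0.906) turned negative under median centring and quantile normalization. Axin1 had 18.4, 19.6 and 19.1 FPKM in TON, against 18.8, 16.9 and 11.8 FPKM in sham, and Apc had 65.2, 73.6 and 70.4 FPKM in TON, against 70.7, 80.9 and 65.4 FPKM in sham.

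Axin2 is a member whose promoter is known to answer to beta-catenin, through TCF/LEF factors. Its promoter, and that of Rspo1 as the member with the largest difference, are given here from RefSeq for the rat assembly GRCr8, from 250 bases before to 50 bases after the start of transcription. Axin2 lies at chr10:94398535-94398834 and Rspo1 at chr5:142536040-142536339 of that assembly, both on the plus strand. Capitals mark the TCF/LEF core motif, searched on both strands in its 4 spellings, CTTTGAA as well as CTTTGAT, and likewise CTTTGTA as well as CTTTGTT.
Axin2: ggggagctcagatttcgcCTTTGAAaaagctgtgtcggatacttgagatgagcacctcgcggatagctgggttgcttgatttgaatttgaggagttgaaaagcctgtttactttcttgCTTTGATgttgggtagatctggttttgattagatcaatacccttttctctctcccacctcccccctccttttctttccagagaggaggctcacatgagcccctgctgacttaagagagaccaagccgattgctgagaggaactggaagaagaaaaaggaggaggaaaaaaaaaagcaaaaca
Rspo1: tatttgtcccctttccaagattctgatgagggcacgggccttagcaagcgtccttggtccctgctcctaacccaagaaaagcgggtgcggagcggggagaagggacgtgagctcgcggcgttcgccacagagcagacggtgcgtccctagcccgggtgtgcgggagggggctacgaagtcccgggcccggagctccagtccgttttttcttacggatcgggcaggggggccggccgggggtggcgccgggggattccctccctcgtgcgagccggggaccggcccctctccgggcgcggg

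The Axin2 promoter held 2 matches, beginning 232 and 132 bases before the start, and the Rspo1 window held none of these letters. Of the 34 members with a promoter in the RefSeq table, 6 held a match (17.6%), beside 17.1% of all 33469 promoters of the same length. A match is a description of the letters and not evidence of binding. The matches of the other 5 members are shown with 12 bases to either side, for Dkk1 the first of 2, read in the direction of the gene.
Dkk1: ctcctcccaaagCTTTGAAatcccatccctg
Fzd7: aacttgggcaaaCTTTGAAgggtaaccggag
Sfrp5: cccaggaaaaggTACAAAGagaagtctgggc
Wnt3: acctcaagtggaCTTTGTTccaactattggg
Wnt8a: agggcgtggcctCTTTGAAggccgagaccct

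In Sfrp5 the match is on the opposite strand. In Fzd7 it begins at the base before the start of transcription, and in Wnt3 it begins at base 20 after the start. None of the 5 was among the members whose groups stood apart, and Dkk1 was listed at 0 in every library.

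The rest of the pathway was read from 62 further genes in 7 lists, which cover Wnt secretion, other antagonists, norrin partners, planar polarity, the destruction complex, nuclear partners and target genes. Of the 60 tested, none passed the threshold in either direction (lowest adjusted p = 0.241, limma), and 6 had an unadjusted p under 0.05, beside 10.4% of all genes tested. TON libraries were all above sham in 8 of the 60 (13.3%, beside 10.8% of all genes tested) and all below in 2 (3.33%, beside 5.33%). Dkk3, a relative of the Dkk inhibitors, was by far the most abundant, with 516, 544 and 511 FPKM in TON, against 508, 502 and 507 FPKM in sham. Kremen1, a receptor that binds Dkk proteins and removes Lrp6 from the surface, had 13.1, 18.9 and 16.4 FPKM in TON, against 10.6, 9.26 and 7.56 FPKM in sham. Its TON libraries were all higher, with a log2 fold change of 0.75 and a standard error of 0.20 (limma, adjusted p = 0.348).

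The kinase gene Csnk1a1, whose product starts the phosphorylation of beta-catenin, had 169, 157 and 168 FPKM in TON, against 139, 143 and 145 FPKM in sham (log2 fold change 0.21, limma, adjusted p = 0.446). Gsk3b, the kinase that completes it, overlapped between the groups, with 97.9 FPKM on average in TON and 103 FPKM in sham. Porcn and Wls, which fit Wnt proteins with a lipid and carry them to the surface, averaged 14.9 and 11.8 FPKM in TON and 12.4 and 14.4 FPKM in sham. Both overlapped. Among planar polarity genes, Celsr3 averaged 26.8 FPKM in TON and 20.7 FPKM in sham, and Ryk 21.4 and 22.9 FPKM. The nuclear partners Chd8 and Cby1 averaged 37.0 and 33.1 FPKM in TON and 37.7 and 37.4 FPKM in sham. All of these overlapped too, Celsr3 only through TON 4 (23.56 FPKM) and sham 1 (23.75 FPKM). Its log2 fold change was 0.36 with a standard error of 0.15 (limma, adjusted p = 0.466). Tspan12, the partner of Fzd4 in norrin signalling, had 9.51, 7.94 and 7.64 FPKM in TON, against 8.70, 8.78 and 9.22 FPKM in sham. Ndp, the gene of norrin, was near 0, with 0.340, 0.114 and 0.145 FPKM in TON, and was listed at 0 in sham. Its log2 fold change was 0.26 with a standard error of 0.18 (limma, adjusted p = 0.664).

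Target genes of beta-catenin were split in direction. Of the 15 listed, members included, 14 were tested, 8 had estimates above 0, and the median log2 fold change was 0.063. Nkd1, a feedback inhibitor and the most abundant of them, averaged 25.5 FPKM in TON and 27.5 FPKM in sham. A pair of low genes of the list stood apart and was picked out after their values were seen. Myc had 3.12, 2.81 and 8.57 FPKM in TON, against 0.711, 0.275 and 0 FPKM in sham (limma, adjusted p = 0.241), and Sp5 had 0.608, 0.406 and 0.908 FPKM in TON and was listed at 0 in sham (limma, adjusted p = 0.37). Neither passed the threshold.

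m6A is a methyl group on adenosine inside mRNA, and a peak is a stretch where pulled-down RNA exceeds input. Peaks had been called per sample by the authors, and each of the 6 lists gives for every peak its position, a score, the false discovery rate and the fold over input. Positions are on the authors' rat genome, whose build was not stated, and are counted from 1. Members held 32, 21 and 27 peaks in the TON lists and 28, 18 and 22 in the sham lists, on 24, 14 and 18 genes in TON and 18, 14 and 13 genes in sham. This is 0.16% to 0.225% of the peaks of each TON list and 0.14% to 0.202% of each sham list. Overlapping peaks of the 6 lists (1 base or more in common) were joined to regions, which gave 48 regions on 24 genes, Fzd5 among them. Of the 48, 9 regions (18.8%) held a peak in all 6 lists, beside 21.4% of all 24605 regions.

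The false discovery rates were high. None of the 148 member peaks was under 5%, the lowest was 7.39%, and 14 peaks, all of them in sham 3, were given 100%. The same start and end recurred in another list for 73.6% of the member peaks and for 82.3% of all peaks. A peak was therefore read as present or absent on a stretch of a gene.

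Peaks followed the level of the mRNA only in part. Of the 11 members with at least 10 FPKM, 9 held a peak in some list (81.8%), beside 75.3% of all genes at that level. The exceptions were Ctnnb1 and Frzb, which held no peak in any list although Ctnnb1 had the most abundant mRNA of the set. Between 1 and 10 FPKM, 11 of 16 members held a peak (68.8%, beside 53.4% of all genes), and under 1 FPKM 3 of 24 did (12.5%, beside 4.42%). Lgr6 is one of those 3. Its last stretch (chr13:56867209-56867832) held a peak in all 6 lists, with a fold enrichment of 7.24 to 11.8 in TON and 4.54 to 9.85 in sham, although an estimated 0, 2 and 1 input fragments were counted for the gene in TON and 0, 1 and 0 in sham.

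The 9 regions shared by all lists mark the stretches most regularly recovered. They lay in Apc, Axin1, Axin2, Fzd3, Fzd6, Lgr4, Lgr6, Lrp6 and Rnf43. In Apc the region was the last 6577 bases of the gene (chr18:26812296-26818872), with a fold enrichment of 15.5, 7.98 and 13.95 in TON, against 7.09, 5.84 and 8.34 in sham. In Axin2 it was the first 812 bases (chr10:96933420-96934231), with 20.7, 10.53 and 19.4 in TON, against 13.1, 8.59 and 8.16 in sham, where TON 4 had the highest enrichment of the 148 member peaks. In Lgr4 it was the last 1913 bases (chr3:107750831-107752743), with 14.3, 8.34 and 11.9 in TON, against 7.91, 6.69 and 7.67 in sham.

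These folds cannot be compared between lists as they stand. In 8 of the 9 shared regions, TON 4 and TON 6 both had a higher fold than every sham list. The same held for 2837 of the 5261 shared regions of all genes, whose median fold was 12.8, 9.96 and 13.1 in TON and 8.72, 9.86 and 9.33 in sham. All 3 TON lists were above all sham lists in 2 of the 9 member regions (22.2%), beside 25.4% of all shared regions.

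**Figure D4:**
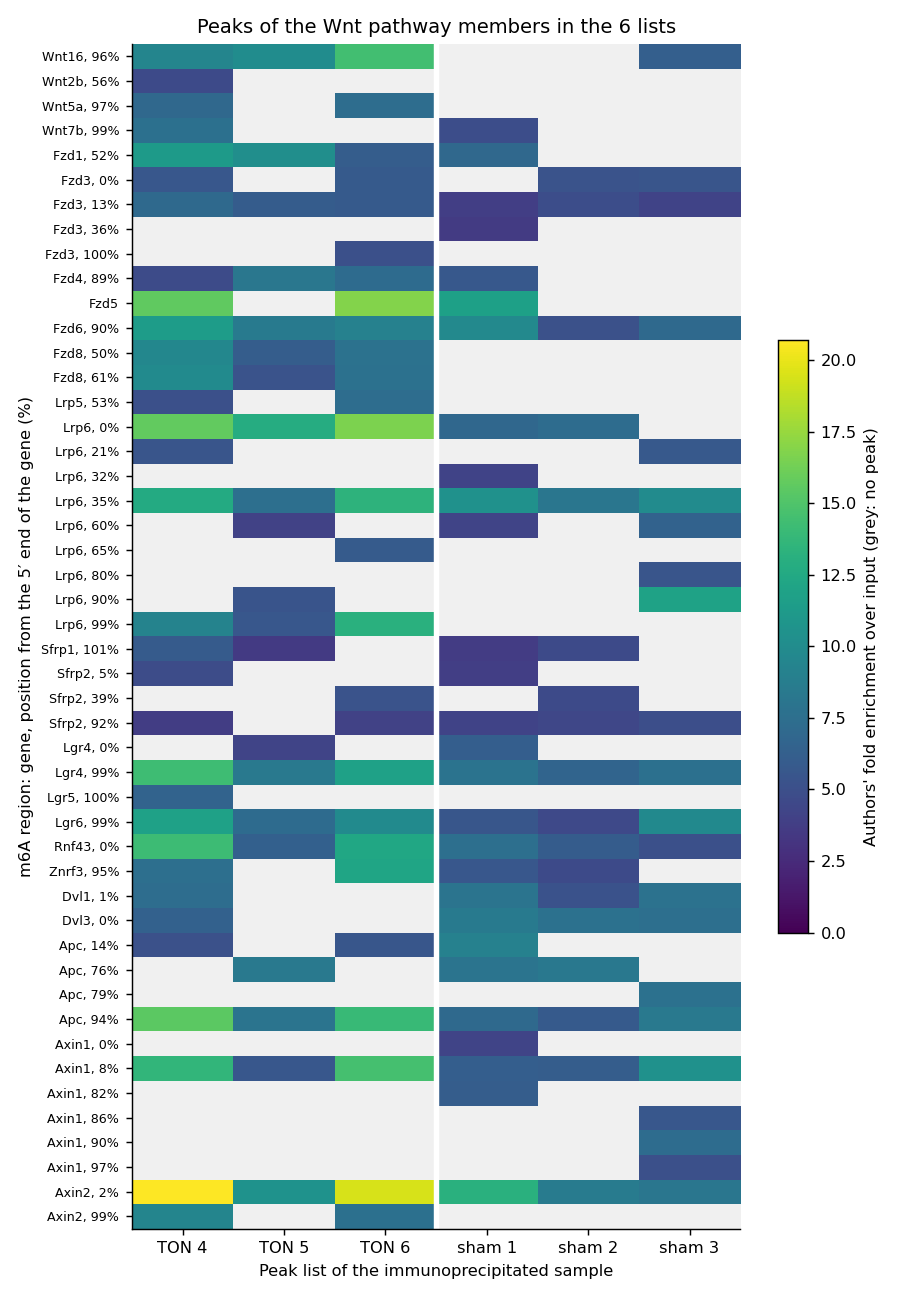
The 48 m6A regions of the members (rows, ordered by role, with the gene and the position of the region from the 5′ end of the gene in percent, not placed for Fzd5) in the 3 TON lists (left) and the 3 sham lists (right). Colour is the authors' fold enrichment over input and grey means no peak. The 9 rows filled from left to right are the regions shared by all lists, and Lrp6 at 99% and both Fzd8 rows are filled on the left only.

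Gained regions are those with a peak in each of the 3 TON lists and in none of the sham lists, and lost regions the reverse. Of the 48 member regions, 3 were gained, beside 1.67% of all regions, and 0 were lost, beside 1.86% of all regions. The 3 include both places of Fzd8, which carry the same transcript identifier, so they are not 3 separate observations. These counts come from a rule of presence and absence with no test. Without the TON 5 list 6 member regions were gained, and without the sham 1 list 5. Without the TON 4 list 2 were lost, those at the 5′ ends of Dvl1 and Dvl3. With fewer lists such a call is easier to meet, and over all genes gained regions rose from 411 to 1411 without the TON 5 list. No share over all regions stands beside the counts of these settings, so nothing about the set is read from them.

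The first gained region lay at the 3′ end of Lrp6 (chr4:232477066-232478111, minus strand), where the peak covered the last 1046 bases of the gene. The fold enrichment was 9.29, 5.64 and 13.1 and the false discovery rate 10.8%, 31.5% and 22.0% in TON 4, 5 and 6. TON 5 had the lowest of these folds, and its median fold over all its peaks was also the lowest of the TON lists, with 7.21 against 8.56 in TON 4 and 9.64 in TON 6. Lrp6 held 9 regions in all, more than any other member. A region at 35% of the gene (chr4:232543251-232543647) was in all 6 lists, with a fold of 12.7, 7.52 and 13.35 in TON, against 10.46, 8.10 and 10.0 in sham, and the first 394 bases of the gene (chr4:232579119-232579512) held a peak in all TON lists and in sham 1 and 2. The level of Lrp6 mRNA, as given above, was lower in TON in every library without passing the test.

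The other gained regions were a pair on Fzd8, which the files list under 1 name at 2 places of chromosome 17 (chr17:64035884-64038869 and chr17:64771658-64774643). Both are 2986 bases long and carry the same transcript identifier, so reads of the 2 places cannot be told apart here and both calls are uncertain. The folds were 9.56, 6.11 and 7.77 at one place and 9.94, 5.29 and 7.70 at the other. The estimated input fragments of Fzd8 were 0, 2 and 2 in TON and 3, 0 and 3 in sham, which is too few to say how its mRNA level compared.

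Other members came close to these calls. With peaks in 2 of the 3 TON lists and no sham list, TON 4 and TON 6 held a region at the 3′ end of Axin2 (chr10:96959014-96959744), one near the 3′ end of Wnt5a (chr16:4431050-4432004) and one inside Lrp5 (chr1:225738289-225738685). No member region was in 2 or 3 sham lists and absent from TON, and 6, the gained ones included, were in 2 or 3 TON lists and absent from sham. Over all genes the same rule gave 1767 regions in TON only and 1699 in sham only, of 24605. Nothing about the set is read from these counts. The 5′ ends of Dvl1 (chr5:176771886-176772056) and Dvl3 (chr11:87139437-87139453) held a peak in all 3 sham lists and in TON 4 only, and both genes had a higher mRNA level in every TON library without passing the test. The mRNA of Wnt5a was likewise higher in every TON library, that of Lrp5 was lower, and that of Axin2 overlapped between the groups. The reverse, a peak in all 3 TON lists and in 1 sham list, was met in regions of Fzd1, Fzd4 and Wnt16. The mRNA of each of these genes overlapped between the groups. Peaks and mRNA levels of the genes named here showed no single direction, and a relation between them was not tested. The Dvl3 peak is 17 bases long. Regions in a single list were 4 in TON and 9 in sham, and 5 of those 9 lay in Axin1, in sham 1 or sham 3.

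Along the genes, member peaks often reached an end. Of the 145 peaks that could be placed, 45 reached the 3′ end of the gene (31.0%, beside 17.8% of all peaks) and 40 the 5′ end (27.6%, beside 16.4%). Member peaks were long, with a median of 507 bases, beside 210 bases over all peaks. Peaks reaching the 3′ end of the gene made up 12 of 31, 9 of 21 and 11 of 26 placed member peaks in TON 4, 5 and 6, against 6 of 27, 4 of 18 and 3 of 22 in sham 1, 2 and 3. As shares these were 38.7%, 42.9% and 42.3% in TON and 22.2%, 22.2% and 13.6% in sham, with no overlap between the groups. The TON numbers include the gained regions of Lrp6 and of both places of Fzd8, which by their rule are in no sham list. The gap is therefore not independent of those calls, and it counts Fzd8 at both places. Over all genes the shares were 22.9%, 16.6% and 23.5% in TON and 13.4%, 17.2% and 13.1% in sham, where TON 5 lay under sham 2. The same genes recur from list to list, so this is a description of the lists and was given no test.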

How the data were processed

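The members follow a rule on gene names, but that rule, the gene lists and the tests were set with earlier results of these data known. Each of 3 TON and 3 sham pools of retinas gave an input and an m6A-immunoprecipitated library. The authors trimmed reads with cutadapt 1.9.3, aligned them with HISAT2 2.0.4 and deposited FPKM per gene from Cufflinks and Cuffdiff, beside a signal, fragments after scaling of the libraries to each other. The study's methods name a human build for the input reads, although the samples are from rat, and which build the peak positions follow is not given. The labels and the study's methods name different kits for the input libraries. Of the low values of this signal, 97.8% to 98.3% per library were whole multiples of 1 step (within 0.02), which gave the estimated fragments. The deposited peak lists, called by the authors with MACS per sample, hold a score derived from p, a ratio (fold enrichment over input), a false discovery rate in percent and the length in bases. The depth of the immunoprecipitated libraries is unknown.

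Levels were tested in R 4.3.3 with limma 3.58.1 (two-sided, intensity trend, log2(FPKM + 1), genes averaging 0.1 FPKM or more in a group, Benjamini-Hochberg adjustment over 15900 genes). Fold changes on this scale understate those of low genes. The test was checked on simulated data with large shifts in genes of higher level. That check does not cover differences as small as those of most members, nor members of low level. Peaks were merged and counted in Python 3.11.15 with pandas 2.3.3. Position is the centre of a peak as a share of the gene's extent in the expression table. Genes at a locus shared with another gene were not placed.

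Values in every sample are given for members averaging 0.5 FPKM or more in a group whose groups do not overlap, members with a gained or lost region, Ctnnb1, Lrp6, Fzd4, Lrp5 and Axin2. Of each further list the 2 most abundant genes are given, some by their means. Other members are described by their levels. Alternatives were other pseudocounts (0.1, 0.01) and filters (none, 1 FPKM), quantile normalization or centring on the median, limma without trend, stricter peaks (the top 50% of a list, or a score of at least 100), 100 shared bases, 2 of 3 lists, whole genes and leaving out each sample. After the data were seen, a fit on the scaled fragments and one lacking both sham 1 and TON 5 were added.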

Additional observations from a re-analysis of the deposited data

How the results depend on the processing

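No member passed the threshold under any of the settings run, and the lowest adjusted p of a member ranged from 0.158 (scaled fragments) to 0.68 (without sham 1 and TON 5, limma). Ctnnb1, Dvl1, Dvl3, Wnt5a, Rspo1, Lrp6, Lrp5 and Fzd4 kept the sign of their log2 fold change in all settings. For Rspo1 it ranged from -2.77 (pseudocount 0.01) to -0.97 (without sham 1 and TON 5), with adjusted p from 0.158 to 0.711 (limma). Axin2 turned to -0.0060 under median centring, -0.0039 under quantile normalization and -0.098 without sham 1 and TON 5, and ranged from -0.037 to 0.25 when 1 library was left out. Fzd8 ranged from -0.24 to 0.014 when 1 library was left out, positive without TON 4, and was negative in all other settings, down to -0.38 (pseudocount 0.01).

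Over all genes, 1 was higher with no filter, and 34 were higher and 17 lower with scaled fragments. Without sham 1 and TON 5, 3 were lower, and leaving out 1 library gave 2 to 9 higher (2 without sham 1) and 1 to 7 lower (2 without sham 2, 7 without sham 3, 2 without TON 6). Members with TON above sham were 2 under median centring (Dvl1 and Wnt5a), 2 under quantile normalization (Ctnnb1 and Wnt5a), 7 without sham 1 and TON 5, and 4 to 11 when 1 library was left out, the most without TON 4. Members with TON below sham were 6 under median centring, 5 without sham 1 and TON 5, and 3 to 7 when 1 library was left out. The 6 include Rspo3 and Wnt4, whose tied zeros were parted by the centring itself. No share over all genes stands beside these counts. Fewer libraries make such a gap easier to meet. The members' median log2 fold change was -0.083 under median centring, -0.077 without sham 1 and TON 5, and -0.081 to 0.031 when 1 library was left out.

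Gained and lost regions of all genes numbered 242 and 294 in the top 50% of each list, 1767 and 1699 with 2 of 3 lists, 129 and 132 as whole genes, and 2032 and 1674 without sham 1 and TON 5. Leaving out 1 list gave 554 to 1411 gained (the most without TON 5) and 511 to 1165 lost (likewise the most without TON 5). Gained member regions were 1 in the top 50%, 6 with 2 of 3 lists, 1 as whole genes, 10 without sham 1 and TON 5, and 3 to 6 when 1 list was left out, the most without TON 5. Lost member regions were 0 to 2 when 1 list was left out, the 2 being those of Dvl1 and Dvl3 without TON 4. Members with a peak averaged 18.7 per TON list and 15.0 per sham list. In the top 50% they averaged 10.3 and 7.67. With a score of at least 100 the TON lists held 20, 12 and 16 members with a peak, and the sham lists averaged 12.0. Leaving out 1 list gave 16.0 to 21.0 in TON and 13.5 to 16.0 in sham. Over all genes, with no score cut, 7297, 6188 and 6625 genes held a peak in TON 4, 5 and 6, and 6653, 6295 and 6108 in sham 1, 2 and 3. The cause of these changes was not tested.

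No paired analysis was possible because TON samples are numbered 4 to 6 and sham samples 1 to 3. Count-based tests were not run, since the deposited columns hold no whole counts. There were 3 pools a group, and Rspo1 had an estimated 1 to 21 fragments in a library. The part of pool number, depth and the log2(FPKM + 1) scale in the results for low members was not tested.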

Other observations

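Several loci of the members are not specific to 1 gene in the deposited expression table. Wnt4, Dkk1, Dkk4, Wnt1 and Wnt10b are each listed with an extent shared with at least 1 other row, and of these only Wnt4 was above 0 in any library. None of these members held a peak in any list, and the only member peaks not placed along a gene were those of Fzd5.

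Fzd5 had no level here but held a peak in TON 4, TON 6 and sham 1 on the same stretch (chr9:71120253-71122004), with a fold enrichment of 15.7 to 16.9 in TON and 11.8 in sham. Wnt16, a ligand at 1.83 to 3.80 FPKM in TON and 0.957 to 4.55 FPKM in sham, held a peak at its 3′ end in all 3 TON lists and in sham 3, the sham library in which its level was highest.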
